A study of Mus musculus with 2 samples.

Results

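Canonical Wnt genes were described in total RNA sequencing of the mouse limb at embryonic day 12.5. The set held 57 genes of 9 classes (14 Wnt ligands, 2 secretion genes, 10 Frizzled receptors, 2 LRP coreceptors, 9 secreted inhibitors, 4 R-spondins, 5 R-spondin receptors and ligases, 7 genes for beta-catenin and its control, and 4 TCF/LEF factors). They were chosen by gene symbol and not by a limit on a measured value, though with earlier results of these data known. All 57 were found among the 43346 Ensembl genes of the deposited tables. The study holds 1 group, limb of strain B6NCrl at day 12.5 of gestation, healthy and of mixed sex, with 2 biological replicates and no treated or mutant arm. Replicate 1 was pooled from 88 embryos and replicate 2 from 68, and each library began with 10 ng of RNA longer than 200 nt. Forelimb and hindlimb were not separated in the labels and both pools carry the same donor identifier.

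In canonical Wnt signalling a secreted, lipid-modified Wnt protein binds a Frizzled receptor together with LRP5 or LRP6, which stops the complex of Axin, APC and GSK3 from marking beta-catenin for destruction. Beta-catenin then enters the nucleus and acts with TCF and LEF proteins on target genes. In the limb bud the pathway is known for its action in the ectoderm and its apical ridge, and for holding back cartilage in the mesenchyme beneath.

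The expected counts, which are read counts estimated per gene, summed to 29810026 in replicate 1 and 29938721 in replicate 2, and the 57 genes took 112500 and 113152 of them. Markers of limb mesenchyme were all detected (15 of 15, summed level 1217 TPM in replicate 1 and 1311 TPM in replicate 2, highest Msx1), as were those of ectoderm and ridge (16 of 16, 463 and 426 TPM, highest Krt14). Cartilage (16 of 18 markers, 1352 and 1174 TPM, highest Col2a1), joint (9 of 10, 294 and 284, Sulf1), tendon and loose connective tissue (10 of 10, 736 and 643, Tcf4) and muscle (13 of 15, 1016 and 974, Actc1) were present too. So were markers of endothelium (12 of 12, 273.5 and 271 TPM, highest Egfl7), erythroid cells (11 of 11, 12534 and 12413, Hbb-y), macrophages (11 of 11, 131 and 118, Pf4), neurons (8 of 11, 70.2 and 94.8, Gap43) and Schwann precursors and melanoblasts (8 of 12, 61.0 and 63.9, Ngfr). Tcf4 in the tendon and loose connective tissue list is a gene of chromosome 18, distinct from the member Tcf7l2 on chromosome 19. With 279 TPM in replicate 1 and 271 TPM in replicate 2, Tcf4 supplied the largest part of that list's sum. Whether Tcf4 is particular to this tissue was not tested. Of 16 markers of trunk organs and liver 2 were detected and 4 were at 0 in both libraries, with a summed level of 9.80 TPM in replicate 1 and 6.43 TPM in replicate 2 (highest Afp). The libraries are from bulk tissue, and for every level given here, fewer cells of a type and less RNA per cell cannot be told apart.

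TPM, the usual normalised transcript level, corrects a count for gene length and library size, so TPM levels can be compared between genes. A gene was counted as detected at 1 TPM or more in both libraries. By that measure 50 of the 57 members were detected (87.7%), against 59.2% of 21474 protein-coding genes. The median member stood at 10.9 TPM, against 4.32 TPM for all protein-coding genes and 21.9 TPM for the detected ones. Levels ran over a wide range, with 30 members at or above 10 TPM and 4 above 100 TPM (Ctnnb1, Sfrp2, Tcf7l2 and Wls). The 57 members summed to 1889.7 TPM in replicate 1 and 1893.5 TPM in replicate 2.

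**Figure D1:**
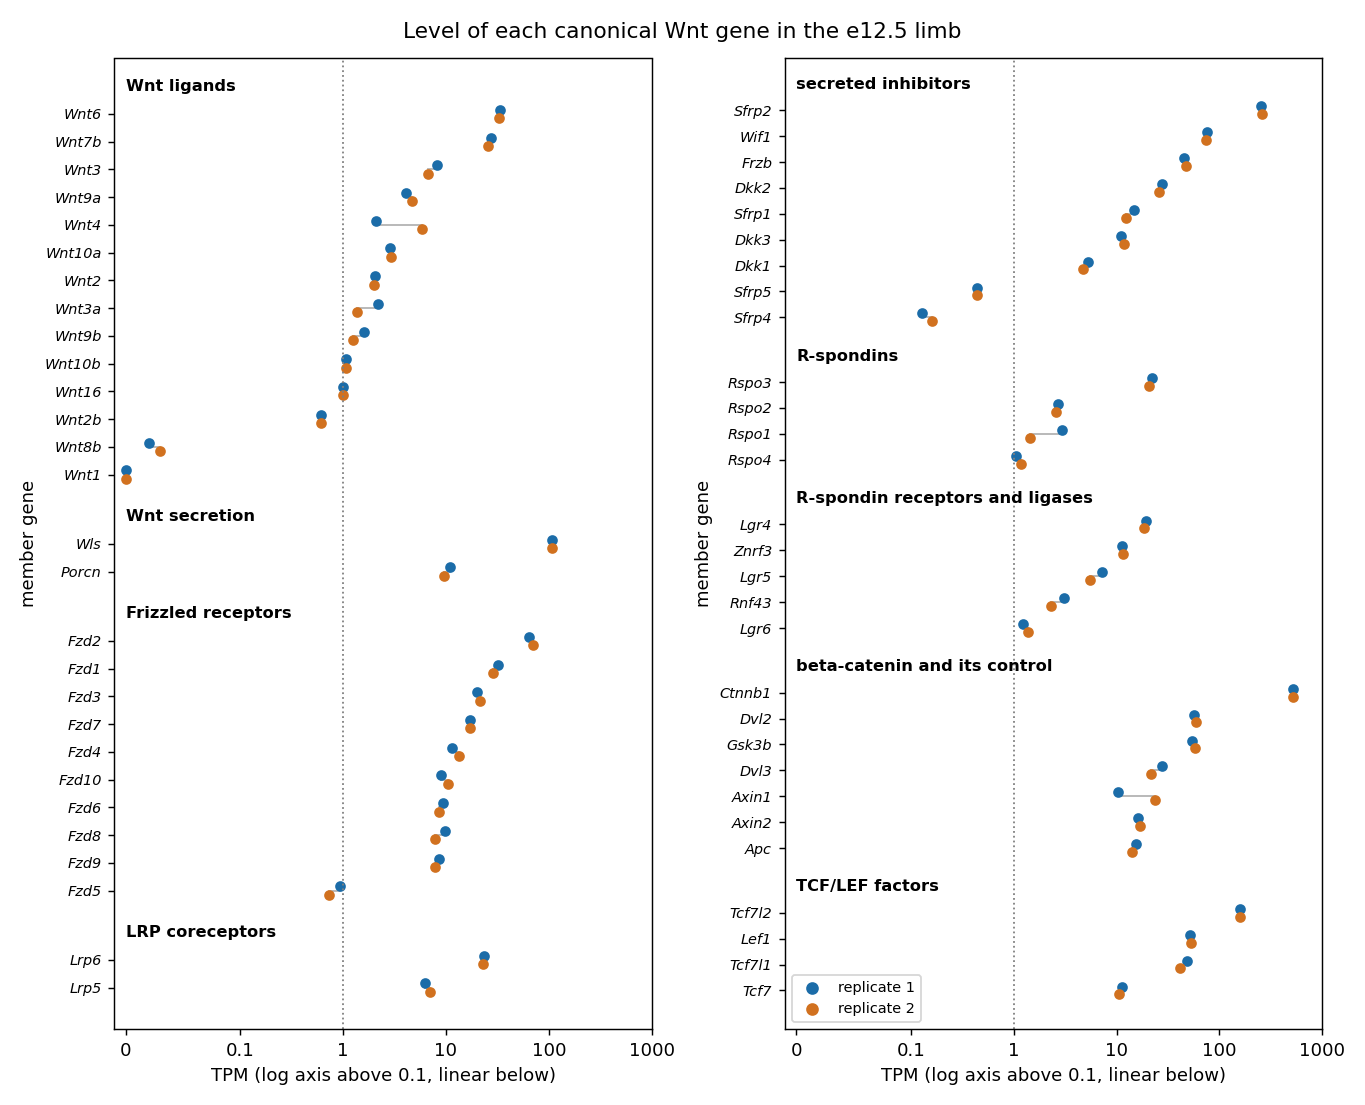
TPM of each of the 57 genes in replicate 1 (blue) and replicate 2 (orange), grouped by class and ordered by mean level, on an axis that is logarithmic above 0.1 TPM and linear below. The dotted line marks 1 TPM. The libraries lie close together for most genes, and Wnt4, Axin1, Rspo1 and Wnt3a show the widest gaps among the detected ones.

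Of the 14 ligand genes 10 were detected, and Wnt6 and Wnt7b led the class. Both are known from the limb ectoderm. Wnt6 (chromosome 1: 74771892 to 74785322 in GRCm38, plus strand) stood at 33.3 TPM in replicate 1 and 32.5 TPM in replicate 2. Wnt7b stood at 27.4 and 25.4 TPM. The pair held 70.2% of the summed TPM of these 14 ligand genes in replicate 1 and 67.8% in replicate 2. Wnt3, the ligand required for the apical ectodermal ridge in the mouse, came next with 8.11 and 6.73 TPM, below both values of Wnt7b.

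The other detected ligands all lay under 6 TPM in both libraries. Wnt9a, known from forming joints, stood at 4.10 TPM in replicate 1 and 4.71 TPM in replicate 2. Wnt4, also known from joints, stood at 2.11 and 5.83 TPM. These ranges overlapped, so the order of Wnt9a and Wnt4 was not resolved. Wnt10a stood at 2.88 and 2.92 TPM and Wnt2 at 2.06 and 1.98 TPM. Wnt3a stood at 2.17 and 1.37 TPM, and Wnt9b at 1.61 and 1.26 TPM. Wnt10b, at 1.07 TPM in both libraries, was the lowest ligand that passed the limit.

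The ligands below the limit were Wnt16, Wnt2b, Wnt8b and Wnt1. Wnt16 missed it narrowly, with 0.990 TPM in replicate 1 and 1.00 TPM in replicate 2. Wnt2b stood at 0.610 TPM in both libraries, from 40 counts in each. Wnt8b had 1 and 2 counts. Wnt1, the ligand of the midbrain and dorsal neural tube, had 0 counts in both libraries, which allows a level of up to 0.0703 TPM in replicate 1 and 0.0698 TPM in replicate 2 (3 counts, counting error only).

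Several ligand genes lie side by side in the genome, in 4 pairs less than 100 kb apart, and each pair held a higher and a lower gene whose ranges did not overlap. Wnt6 and Wnt10a lie 6.19 kb apart on chromosome 1, and Wnt6 was 11.6-fold higher than its neighbour in replicate 1 and 11.1-fold in replicate 2. Wnt3 and Wnt9b lie 24.3 kb apart on chromosome 11, with Wnt3 5.04-fold and 5.34-fold higher. Wnt9a and Wnt3a, 16.2 kb apart on the same chromosome, differed by 1.89-fold and 3.44-fold, with Wnt9a the higher. Wnt10b and Wnt1 lie 11.7 kb apart on chromosome 15, and Wnt10b was the one with counts (37 and 39). Neighbouring ligands thus stood at different levels in the same tissue. Ligand pairs that do not lie side by side were not compared in this way. Among genes next to each other in order of level, 37 of 48 within the classes were separated too. Separation is therefore not shown to be particular to neighbours in the genome.

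Both secretion genes were detected. Wls, which carries Wnt proteins to the cell surface, stood at 107 TPM in replicate 1 and 108 TPM in replicate 2. Porcn, the enzyme that attaches the lipid, stood at 10.8 and 9.65 TPM. Wls was thus 9.89-fold and 11.1-fold above Porcn, and held 90.8% and 91.8% of the summed level of the class, 117.5 ± 0.481 TPM (SD, n = 2).

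Porcn on the X chromosome was split over several transcripts. Porcn-203 held 42.0% of the gene in replicate 1 and 42.7% in replicate 2. Porcn-205, annotated for nonsense-mediated decay, held 18.8% and 21.3%, and Porcn-206, annotated as a retained intron, held 18.5% and 15.3%. Porcn-202, a coding transcript, held 12.2% and 12.0%. The shares were alike in both libraries. Porcn-202 differs from Porcn-203 in its coding part by an exon of 18 bases (6 codons), exon 7 of 14, at chrX:8203026-8203043 on the minus strand of GRCm38. It is shown because it is the coding difference between these 2 transcripts, read from GENCODE M21, with the exon in capitals between 15 coding bases of each neighbouring exon.
Porcn-202 exon 7: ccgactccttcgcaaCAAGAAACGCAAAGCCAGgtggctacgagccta

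Of the 10 Frizzled genes, which encode the seven-pass receptors, 9 were detected, and their summed level was 184 ± 2.62 TPM (SD, n = 2). Fzd2 was the highest at 64.1 TPM in replicate 1 and 69.7 TPM in replicate 2, or 35.1% and 37.4% of the class. Fzd1 stood at 32.3 and 28.9 TPM, and Fzd3, better known for planar cell polarity and axon guidance, at 20.0 and 21.6 TPM. Fzd7 stood at 17.2 and 17.3 TPM, and Fzd4, also the receptor for Norrin, at 11.4 and 13.5 TPM. These 5 receptors were in the same order in both libraries, with no overlap between neighbours.

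Below them Fzd10 (8.98 and 10.6 TPM), Fzd6 (9.41 and 8.53 TPM), Fzd8 (9.82 and 7.76 TPM) and Fzd9 (8.52 and 7.76 TPM) could not be ordered, because each overlapped the next. Fzd5 was the one receptor gene not detected, at 0.930 TPM in replicate 1 and 0.730 TPM in replicate 2 from 110 and 86.1 expected counts.

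The coreceptors LRP5 and LRP6 bind Wnt together with Frizzled. Lrp6 stood at 23.6 TPM in replicate 1 and 22.9 TPM in replicate 2, and Lrp5 at 6.27 and 7.05 TPM. Lrp6 was thus 3.76-fold and 3.25-fold above Lrp5 and held 79.0% and 76.4% of the pair's level. The sum, 29.9 ± 0.0566 TPM (SD, n = 2), was below that of the Frizzled genes in both libraries.

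Secreted inhibitors, which bind Wnt proteins or the coreceptors, were the second highest class. They summed to 434 TPM in replicate 1 and 436 TPM in replicate 2. That was 5.02-fold and 5.11-fold the summed level of the 14 ligand genes of the set, which leaves out other Wnt genes such as Wnt5a. Sfrp2, a soluble Frizzled-related protein, stood at 253 and 259 TPM and held 58.4% and 59.4% of the class. It ranked second of the 57 genes, above 97.4% of protein-coding genes. Wif1, which binds Wnt proteins directly, stood at 76.1 and 74.4 TPM. Frzb, a Frizzled-related protein known from cartilage, stood at 45.1 and 47.6 TPM. Sfrp2 exceeded Frzb 5.63-fold and 5.44-fold.

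Dkk2 and Sfrp1 formed a middle tier. Dkk2, a ligand of LRP5 and LRP6, stood at 27.6 TPM in replicate 1 and 25.7 TPM in replicate 2. Sfrp1 stood at 14.9 and 12.3 TPM, 17.0-fold and 21.0-fold below its relative Sfrp2. Dkk3, a divergent member of the Dickkopf family, stood at 11.0 and 11.9 TPM. Dkk1, the LRP antagonist required for normal digit number in the mouse, stood at 5.23 and 4.71 TPM. Dkk3 was 2.10-fold and 2.53-fold above it. The detected inhibitors were separated at every step of the order. Sfrp5 (0.440 TPM in both libraries) and Sfrp4 (0.130 and 0.160 TPM, from 4 and 5 counts) were not detected.

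R-spondins raise Wnt signalling by removing the ligases that degrade Frizzled receptors. All 4 passed the limit, with a summed level of 27.3 ± 1.92 TPM (SD, n = 2). Rspo3 stood at 22.0 TPM in replicate 1 and 20.7 TPM in replicate 2 and held 76.7% and 79.8% of the class. Rspo2, required for normal limb outgrowth in the mouse, stood at 2.70 and 2.61 TPM. Rspo3 was 8.14-fold and 7.93-fold above Rspo2. Rspo1 stood at 2.92 and 1.44 TPM and overlapped Rspo2, and Rspo4 was the lowest at 1.06 and 1.19 TPM.

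On the receiving side of the R-spondins, Lgr4 stood at 19.3 TPM in replicate 1 and 18.7 TPM in replicate 2. Its relative Lgr5, known as a stem cell marker of the gut, stood at 7.25 and 5.53 TPM, and Lgr6 at 1.24 and 1.37 TPM. The ligase gene Znrf3 stood at 11.2 and 11.6 TPM, and the other ligase, Rnf43, at 3.11 and 2.33 TPM. Lgr4 was thus 2.66-fold and 3.37-fold above Lgr5, and Znrf3 was 3.60-fold and 4.97-fold above Rnf43. No neighbours in the order of these 5 genes overlapped, and their sum was 40.8 ± 1.83 TPM (SD, n = 2).

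The genes for beta-catenin and its control formed the highest class, at 705 ± 8.63 TPM (SD, n = 2). Ctnnb1, which encodes beta-catenin (also a part of cell junctions), stood at 519 TPM in replicate 1 and 518 TPM in replicate 2. It held 74.2% and 72.8% of the class and was the highest of the 57 genes, above 99.0% of protein-coding genes. Dvl2, one of the Dishevelled genes that relay the signal from Frizzled, stood at 57.1 and 58.5 TPM, and the kinase gene Gsk3b at 54.1 and 57.9 TPM. These ranges overlapped. Dvl3 stood at 27.7 and 21.8 TPM, 2.06-fold and 2.69-fold below Dvl2.

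The scaffold genes of the destruction complex lay below Gsk3b in both libraries. Axin2, which is also a widely used target gene of the pathway, stood at 16.1 TPM in replicate 1 and 17.1 TPM in replicate 2. Apc stood at 15.5 and 14.1 TPM. Axin1 stood at 10.3 and 23.9 TPM. Axin1 was below Axin2 in replicate 1 and above it in replicate 2 (ratios of 0.639 and 1.40), and this was the 1 pair of 16 compared whose ranges overlapped. The range of Axin1 overlapped that of Dvl3 as well, so that step of the order was not resolved.

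Among the nuclear partners of beta-catenin, Tcf7l2 stood at 158 TPM in replicate 1 and 157 TPM in replicate 2. Lef1 stood at 52.1 and 52.6 TPM, Tcf7l1, known mainly as a repressor, at 48.0 and 41.5 TPM, and Tcf7 at 11.2 and 10.6 TPM. The 4 genes kept this order in both libraries without overlap. Tcf7l2 was 3.29-fold and 3.77-fold above Tcf7l1, Lef1 was 4.64-fold and 4.95-fold above Tcf7, and the class summed to 265 ± 5.40 TPM (SD, n = 2).

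**Figure D2:**
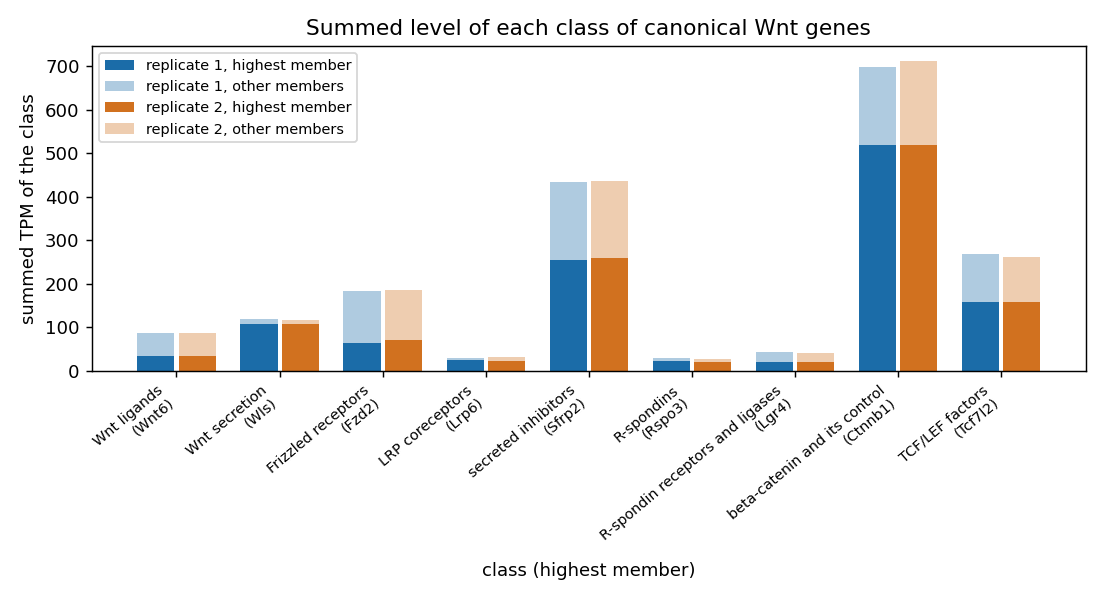
Summed TPM of each class in replicate 1 (blue, left bar) and replicate 2 (orange, right bar), with the highest member, named under the class, in full colour and the other members in pale colour. Beta-catenin and its control (699 and 712 TPM) and the secreted inhibitors (434 and 436 TPM) stand highest, and Ctnnb1 and Sfrp2 make up most of them.

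Within the classes 48 neighbours in the order of mean level were compared, and 37 were separated, meaning that both values of the higher gene lay above both values of the lower. With 2 libraries an exact test over samples cannot go below p = 0.5, so this is a description.

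Transcript shares were read from the deposited percentages for the 24 members of at least 5 TPM with 2 or more transcripts. The same transcript was the highest in both libraries for 23 of them (95.8%), against 92.5% of 7996 genes passing the same limits. Ctnnb1 was divided between Ctnnb1-214 (55.2% in replicate 1 and 54.8% in replicate 2) and Ctnnb1-201 (40.8% and 40.6%). Tcf7 and Tcf7l1 had 1 leading transcript, with 75.2% and 80.2% for Tcf7-201 and 90.5% and 93.4% for Tcf7l1-201. In 6 members the leading transcript held under 50% in at least 1 library.

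Tcf7l2, with 22 listed transcripts, was the exception in which the leading transcript differed. Tcf7l2-209, a coding transcript, held 29.7% in replicate 1 and 26.7% in replicate 2, and Tcf7l2-206, annotated as a retained intron, held 23.7% and 29.5%. The other members under 50% kept their leading transcript. Apc-203 held 42.9% and 41.2% of Apc, and Axin2-201 held 49.7% and 39.9% of Axin2. Dvl3 was almost evenly shared by Dvl3-201 (44.5% and 42.0%) and Dvl3-203 (39.4% and 39.8%). These are estimates that divide reads shared between transcripts, and they carry no interval here. Names and types are those of GENCODE M21, matched by identifier, and some transcripts were quantified at another length. Ctnnb1-214 was quantified at 3422 nt but has 2702 nt in M21. The lengths were 2493 and 3983 nt for Dvl3-203 and 1041 and 1087 nt for Tcf7l2-206. The transcripts with printed segments had the same length in both.

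Lef1 and Axin1 each had 2 main coding transcripts that differ in sequence near the end of the protein. Lef1-202 held 52.3% of Lef1 in replicate 1 and 48.6% in replicate 2, and Lef1-204 held 35.5% and 41.0%. Axin1-201 held 79.5% of Axin1 and 69.3%, and Axin1-203 held 20.5% and 30.8%. The segments below, from GENCODE M21 on GRCm38, are the coding bases of the first of each pair that the second lacks, in capitals, with up to 15 coding bases of the neighbouring exons in lower case. The Axin1 segment is exon 9 of 11, chr17:26192516-26192623 on the plus strand, whose 108 bases make 36 codons, and it gives Axin1-201 a coding length of 2604 bases, against 2496 bases in Axin1-203. The Lef1 segment is the 32 coding bases of exon 10, chr3:131204933-131204964 on the plus strand. Lef1-202 has a coding length of 1107 bases, against 1152 bases in Lef1-204.
Axin1-201 exon 9: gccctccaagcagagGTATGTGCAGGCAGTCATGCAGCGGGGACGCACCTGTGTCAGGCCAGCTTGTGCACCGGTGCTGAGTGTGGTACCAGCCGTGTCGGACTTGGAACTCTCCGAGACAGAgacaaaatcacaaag
Lef1-202 exon 10: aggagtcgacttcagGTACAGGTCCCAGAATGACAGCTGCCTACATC

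**Figure D3:**
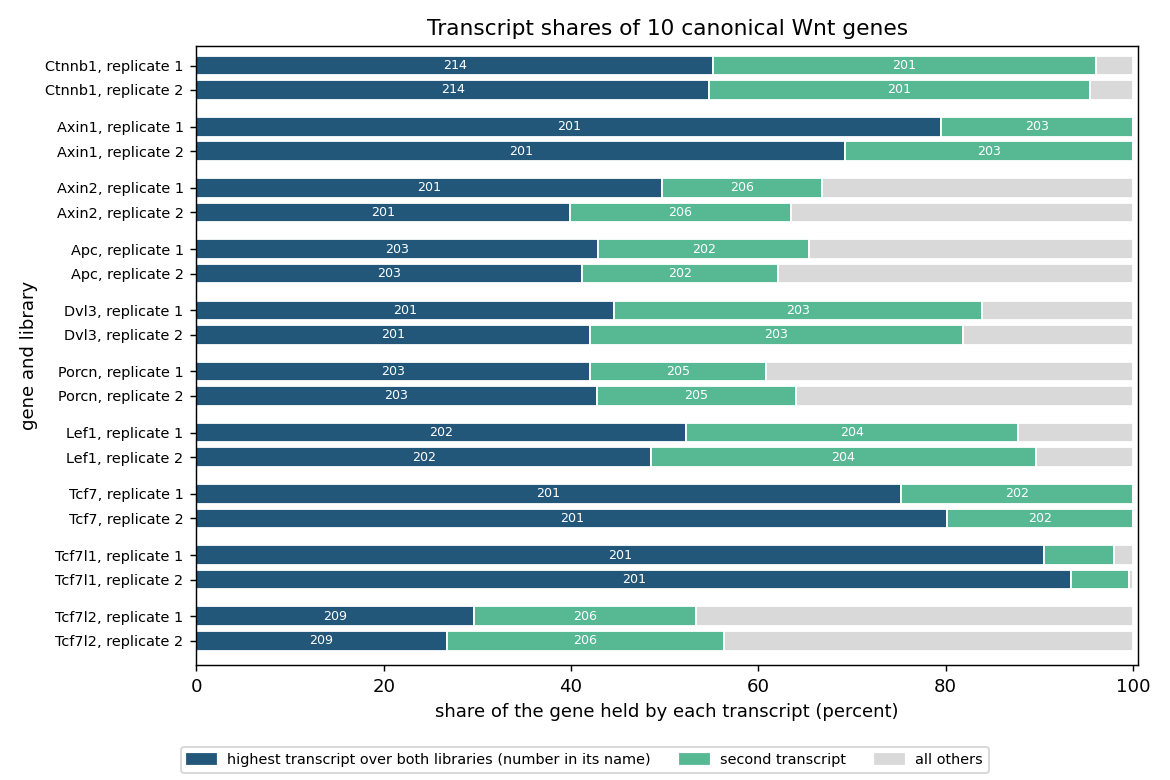
Share of each gene (percent) held by its highest transcript over both libraries, by the second and by all others, for 10 genes, with replicate 1 above replicate 2. Numbers in the bars are the ends of the transcript names. Shares are alike between libraries for Ctnnb1 (55.2% and 54.8% for the highest), and Axin1-203 takes 20.5% in replicate 1 and 30.8% in replicate 2.

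The replicate libraries were then compared gene by gene with a two-sided exact conditional binomial test, which covers counting error only and compares these 2 libraries, not conditions. A gene was called at an adjusted p under 0.05 (Benjamini-Hochberg over 18580 genes) and a fold of at least 1.5. Ratios are replicate 1 over replicate 2. Of the 54 members with at least 10 summed counts 4 were called, against 3.01% of all genes tested. Of these, 2 were higher in replicate 1 and 2 in replicate 2, against 1.45% and 1.56% of all genes. Wnt1, Wnt8b and Sfrp4 were not tested. Without the fold limit 16 members (29.6%) had an adjusted p under 0.05, against 2975 genes (16.0%). The test resolves smaller folds at higher counts, and these shares were not matched for counts. Tcf7l2, for example, passed at a fold of 1.08 from 7361 counts in replicate 1 and 6935 in replicate 2. The median log2 ratio of the members was 0.05, against 0.01 for all genes, and 39 of the 50 detected members agreed within 1.2-fold in TPM. The common coefficient of variation between replicates was 0.0698 over all genes, from edgeR.

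Axin1 (chromosome 17: 26138688 to 26195811, plus strand) had 673 counts in replicate 1 and 1533 in replicate 2, a log2 ratio of -1.17 (exact binomial test, adjusted p = 3.29e-71). Replicate 2 was 2.25-fold higher (95% exact interval 2.05 to 2.46, counting error only). Both main transcripts took part, since Axin1-201 stood at 8.17 TPM in replicate 1 and 16.5 TPM in replicate 2, and Axin1-203 at 2.11 and 7.34 TPM. Its partner gene Axin2 did not pass the test (789 and 748 counts, log2 ratio 0.10).

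Wnt4 (chromosome 4: 137277489 to 137299726, plus strand) had 162 counts in replicate 1 and 450 in replicate 2, a log2 ratio of -1.45 (exact binomial test, adjusted p = 4.13e-29). Replicate 2 was 2.74-fold higher (95% exact interval 2.28 to 3.30). The ligands beside it in the order were not called, with 247 counts in replicate 1 and 286 in replicate 2 for Wnt9a and 115 and 100 for Wnt10a.

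The 2 genes higher in replicate 1 rested on fewer counts. Rspo1 had 95 counts in replicate 1 and 47 in replicate 2, 2.05-fold higher in replicate 1 (95% exact interval 1.43 to 2.97, exact binomial test, adjusted p = 0.000775). Wnt3a had 108 and 69 counts, 1.59-fold higher in replicate 1 (95% exact interval 1.16 to 2.18, exact binomial test, adjusted p = 0.0237). edgeR's exact test was also run with the common dispersion, which was estimated from the same 2 libraries and is therefore no separate measure of replicate spread. Its adjusted p was 0.400 for Wnt3a, 0.0463 for Rspo1, 7.17e-11 for Axin1 and 2.90e-11 for Wnt4.

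**Figure D4:**
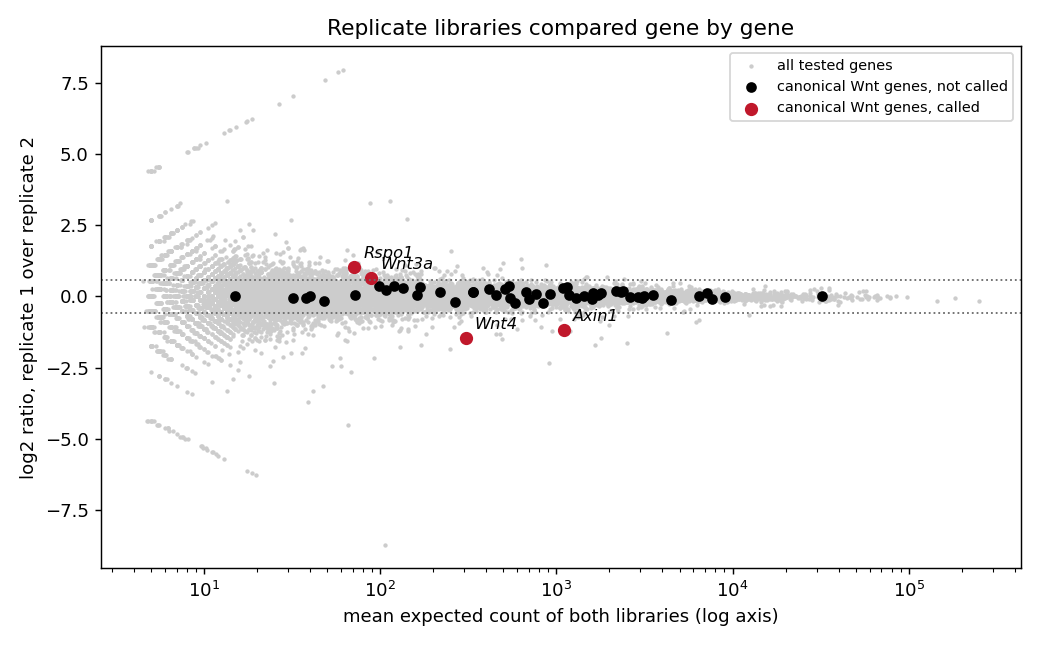
Log2 ratio of replicate 1 over replicate 2 against the mean expected count (log axis) for 18580 tested genes (grey), with the canonical Wnt genes in black or, where called, in red. Dotted lines mark a fold of 1.5. Rspo1 and Wnt3a lie above the upper line and Wnt4 and Axin1 below the lower one.

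Marker lists also differed between the pools. Of 11 neuron markers 7 were called higher in replicate 2, where the summed level was 94.8 TPM, against 70.2 TPM in replicate 1, and no marker was at 0 in both. In the cartilage list 7 of 18 markers were called higher in replicate 1. Over all genes tested 1.45% were called higher in replicate 1 and 1.56% higher in replicate 2. Without regard to calls, most markers lay on the side of replicate 1 in ectoderm (14 of 16, none called), muscle (14 of 15, none called), macrophages (10 of 11, none called) and tendon and loose connective tissue (9 of 10, 1 called). So did 8 of 10 joint, 8 of 11 erythroid and 8 of 12 endothelial markers. The tested Wnt members also leaned to this side, with 36 there and 18 on the other. The share of all tested genes on this side was not counted, and their median log2 ratio was 0.01. Whether the lean is particular to these lists therefore cannot be said. Limb mesenchyme had 10 of 15 markers on the side of replicate 2, none of them called. The other 5 lay on the side of replicate 1, and 1 of them, Alx4, was called. The part of these lists in the ratios of Wnt4, Axin1, Rspo1 and Wnt3a was not tested.

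The base composition of the transcripts differed among the called members too. For each gene the 100-nt window richest in G and C was found in the transcript used for it, a measure chosen after the ratios were seen. The richest windows of Axin1 and Wnt4 reached 90% GC, both in the 5′ UTR in exon 1. Among all tested genes with a window of at least 90%, 20 of 176 (11.4%) were called higher in replicate 2 and 1 (0.568%) higher in replicate 1. Axin1, Wnt4 and the pathway gene Dvl1 are themselves among these 20. Each lies at 90%, the lower edge of this range, and the share was not computed without them. Among 14907 genes with a window under 80%, 1.49% were called higher in replicate 2 and 1.45% higher in replicate 1. Rspo1 (87%) and Wnt3a (81%) had their richest windows in the 5′ UTR as well. From 85% to under 90%, the range of Rspo1, 0.947% of 1056 genes were called higher in replicate 1 and 1.61% higher in replicate 2. From 80% to under 85%, the range of Wnt3a, the shares were 1.62% of 2342 genes for replicate 1 and 0.854% for replicate 2. The part of these windows in the ratios was not tested.

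Znrf3 had the richest window of all members, 92% GC, and was the 1 of 3 members at or above 90% that was not called (1253 counts in replicate 1 and 1336 in replicate 2, log2 ratio -0.07). Its window lies in the coding part of exon 1 of Znrf3-201, at chr11:5444575-5444674 on the minus strand of GRCm38. It is printed as the extreme of the set, from GENCODE M21, with each G and C in capitals.
Znrf3-201 window: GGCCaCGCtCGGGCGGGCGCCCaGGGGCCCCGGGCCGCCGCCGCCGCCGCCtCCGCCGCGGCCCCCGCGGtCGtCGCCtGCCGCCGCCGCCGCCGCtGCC

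**Figure D5:**
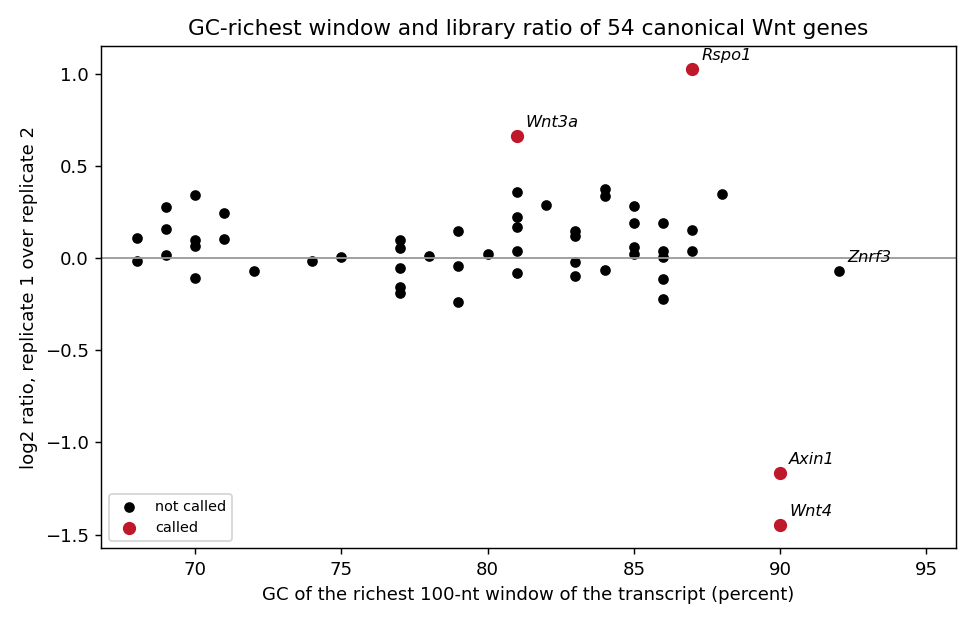
Log2 ratio of replicate 1 over replicate 2 against the GC content of the richest 100-nt window (percent) for the 54 tested genes, with called genes in red. Axin1 and Wnt4 lie at 90% with ratios of -1.17 and -1.45, and Znrf3 lies at 92% with a ratio of -0.07.

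Other genes of the pathway were read from lists by their place in the cell. In the cytoplasmic list 24 of 25 genes were detected, led by Ppp2r1a (a phosphatase subunit, 263 TPM in replicate 1 and 259 TPM in replicate 2) and the casein kinase genes Csnk1a1 (237 and 269) and Csnk1g2 (140.0 and 141). One of the 25 was called, the third Dishevelled gene Dvl1, with 256 and 726 counts (4.46 and 12.3 TPM, log2 ratio -1.48, exact binomial test, adjusted p = 1.23e-48). Its richest window also reached 90% GC in the 5′ UTR. Dvl1 was thus below Dvl2 and Dvl3 in both libraries.

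In the nuclear list all 21 matched genes were detected and none was called, with the corepressor genes Ctbp1 (289 and 298 TPM) and Hdac1 (241 and 235) and the ATPase gene Ruvbl1 (132 and 136) highest. Of 18 extracellular and membrane genes 14 were detected and none was called. The glypican gene Gpc3, whose loss causes overgrowth of the mouse embryo, led at 984 TPM in replicate 1 and 989 TPM in replicate 2, above Ctnnb1, followed by Tmem59 (280.0 and 297) and Cthrc1 (99.9 and 85.2). Of 19 feedback and target genes 14 were detected, with Id2 (293 and 305 TPM), the cyclin gene Ccnd1 (144 and 136) and Mycn (95.0 and 109) highest. Ascl2 was called higher in replicate 2, with 9 and 27 counts (exact binomial test, adjusted p = 0.0322).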

How the data were processed

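Levels were read from the gene and transcript tables of 2 limb pools. The expected counts, as deposited, are estimates that divide reads shared between genes, and were rounded for tests. The deposited TPM and FPKM values are scaled by length and library over all 69691 rows, per the file headers, and the deposited percent values give each transcript's share of its gene. Text files deposited with the samples name mm10 and GENCODE M4. Not given in the sources used here were the aligner, the quantifier and the use of strand, so overlapping and antisense genes may share reads. Names, coordinates and sequences came from GENCODE M21 on the same assembly, which named 42462 of 43346 Ensembl genes. GC windows were thus read from M21 transcripts, some of which differ in length from those quantified.

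Members, lists, pairs and limits were chosen with earlier results of these data known. Named were all members, the 3 highest and every called gene of the other pathway lists, the highest gene of each marker list, and the transcripts of members whose leading one held under 50% or differed between libraries, always with Ctnnb1, Axin1, Lef1, Tcf7, Tcf7l1 and Tcf7l2. Printed segments and the window of Znrf3 were chosen after values were seen. Tle5 was not matched by that symbol, and Gpr124 and Troy are older symbols of Adgra2 and Tnfrsf19, which were.

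The binomial test used totals over Ensembl genes (28832310 in replicate 1 and 29249374 in replicate 2), leaving out 26345 rows of spike-ins and numeric identifiers. Its log2 ratios carry a pseudocount of 0.5 counts, and those of gene pairs 0.1 TPM. A quasi-likelihood test in edgeR of 1 library against 1 has no residual degrees of freedom. The script was tested on simulated data. Intervals and the floor of 3 counts cover counting error, as reads carried no recorded molecular identifiers. Alternatives changed the unit, scaling, filters, pseudocount and test. Tools were Python 3.11.15 (numpy 2.4.6, pandas 2.3.3, scipy 1.17.1, matplotlib 3.10.9) and R 4.3.3 (DESeq2 1.42.0, edgeR 4.0.16).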

Additional observations from a re-analysis of the deposited data

How the results depend on the processing

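No paired analysis was possible because the study has 1 group. The search of proteins for motifs was not run. The number of detected members lay between 37 (5 TPM) and 54 (at least 10 counts), and between 50 and 51 with 1 replicate left out. Posterior mean TPM gave class sums of 84.7 for ligands, 114 for secretion, 180.1 for Frizzled, 29.5 for LRP, 424 for inhibitors, 692 for beta-catenin and its control and 259.8 for TCF/LEF. TPM rescaled to genes that are not mitochondrially encoded gave 94.3, 129, 202, 32.8, 477, 774 and 291 in that order, 30.0 for R-spondins and 44.7 for their receptors and ligases. The order of these sums came out the same. Of the 16 gene pairs, 15 were separated by each unit, and their mean ratios kept their sign. The overlapping pair, Axin1 over Axin2, turned from a mean log2 ratio of -0.08 to 0.01 with posterior mean TPM and 0.40 with counts, and stood at 0.48 without replicate 1 and -0.64 without replicate 2, so its direction is not resolved. Counts without length scaling moved 11 of the pair ratios beyond 1 SD, and posterior mean TPM put Znrf3 over Rnf43 at a log2 ratio of 1.45.

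With 2 members on each side, the calls were the same in number with TMM, DESeq2 size factors, no filter or a minimum of 50 counts. A fold of at least 2 left 1 in replicate 1 (139 of all genes in replicate 1 and 174 in replicate 2), and no fold limit gave 11 and 5 (1683 and 1292 of all genes). edgeR's exact test with the common dispersion gave 1 in replicate 1, with 88 and 137 of all genes. The coefficient of variation was 0.0701 without scaling and 0.0651 over genes with at least 100 counts. Depth limits Wnt1, Wnt8b and Sfrp4, which had at most 5 counts. Leaving out a replicate leaves no test between libraries.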
